A study of Mus musculus with 10 samples.

Results

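Cholinergic motor neuron genes are 8 genes that spinal motor neurons use to make, load and break down acetylcholine or that mark these cells. They were picked by name, with earlier results of these data known, and each was found by its Entrez Gene identifier: Chat (12647), Slc18a3 (20508), Slc5a7 (63993), Ache (11423), Isl1 (16392), Mnx1 (15285), Chodl (246048) and Mmp9 (17395). All 8 were present among the 26301 identifiers of the count files, and all 8 passed the filter on low counts that left 15540 genes. Spinal cord RNA of C57BL/6 mice, an inbred laboratory strain, was sequenced in 10 libraries. There were 2 libraries of 4-week males, 2 of 4-week females, 3 of 8-week males and 3 of 8-week females, with no treatment or transgene in the labels. Whether the libraries of a group are different animals is not in the labels; each p-value therefore sets a difference against the spread among these libraries, which may be technical.

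Motor neurons of the cord are the cells that reach skeletal muscle, and acetylcholine is their transmitter. Choline acetyltransferase (Chat) makes it from choline that the transporter Slc5a7 takes up at the terminal, the vesicular transporter Slc18a3 loads it into vesicles, and acetylcholinesterase (Ache) breaks it down after release. Isl1 and Mnx1 are homeodomain transcription factors that set motor neuron identity in the embryo, and the lectin-like membrane protein Chodl and the matrix protease Mmp9 mark motor neurons of fast muscle units in the adult. Some of these genes are also used elsewhere: cholinergic interneurons share the transmitter genes, sensory ganglion neurons and adrenal medulla cells use Isl1, muscle and red cells make Ache, and neutrophils and osteoclasts make Mmp9.

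Library totals lay between 8453559 and 11594610 counts. The tissue label held: the myelin gene Mbp lay between 21700 and 34200 CPM (the usual scaling of a gene's counts by the library total) and the glycine transporter Slc6a5, a marker of inhibitory cord neurons, between 48.6 and 142 CPM. Transcripts of tissues outside the cord were also present and differed between libraries. The summed level of 12 skeletal muscle genes was 605 to 2220 CPM at 4 weeks and 131 to 275 CPM at 8 weeks, and that of 12 neutrophil and marrow genes was 234 to 659 CPM at 4 weeks and 137 to 234 CPM at 8 weeks. Male 4-week library 1 was the highest of the 10 in both. Adrenal medulla enzyme Pnmt was found only in the 2 male 4-week libraries (3.75 and 2.07 CPM), and 7 lung epithelium genes summed to 865 and 100 CPM in male 8-week libraries 2 and 3 against 8.32 CPM or less elsewhere.

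Of the 8 genes, Chodl was higher and Mmp9 lower at 8 weeks than at 4 weeks over both sexes, and 6 did not pass the test. Chodl rose by 0.34 on the log2 scale (SE 0.08) and Mmp9 fell by 0.82 (SE 0.17). Age differences are log2 fold changes of 8 against 4 weeks, positive where the level was higher at 8 weeks. The synthesizing enzyme Chat stood at 0.20, the vesicular acetylcholine transporter Slc18a3 at 0.13 and the choline transporter Slc5a7 at −0.04, none of which passed. Levels are TMM-scaled CPM, that is, CPM of a library total corrected for composition, and a gene was called where its adjusted p was under 0.05 in the quasi-likelihood test of edgeR, adjusted by Benjamini-Hochberg over all 15540 genes. As background, 6.62% of all genes tested were called in either direction, 1.61% higher and 5.01% lower, and 3 of the 8 had an unadjusted p under 0.05, against 21% of all genes. The 4-week and 8-week libraries overlapped for each of the 8 genes, while 7.73% of all genes tested had ages that did not overlap. The median change of the 8 was 0.14, against 0.01 over all genes tested. In whole cord RNA fewer cells of a type and less RNA per cell cannot be told apart.

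**Figure D1:**
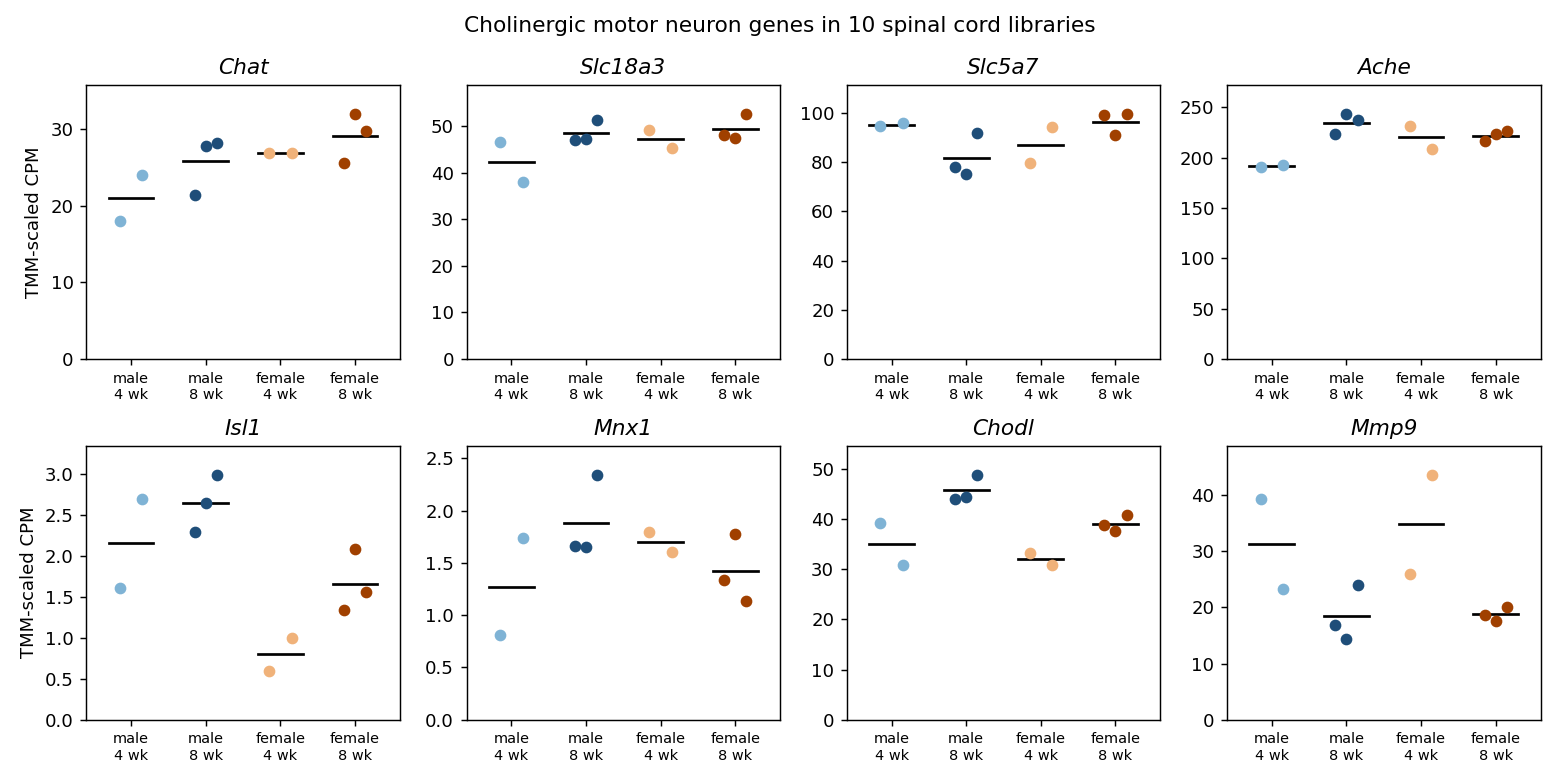
Level of each of the 8 genes in the 10 libraries, in TMM-scaled CPM on a linear axis that starts at 0; points are libraries and bars are group means (2 libraries per 4-week group, 3 per 8-week group). The 8-week group means of Chodl are higher and those of Mmp9 lower in both sexes, and with the sexes pooled the ages overlap for each of the 8 genes.

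Chat and Slc18a3 form the cholinergic gene locus, an arrangement in which the vesicular transporter gene lies inside the gene of the synthesizing enzyme. In the GENCODE M21 annotation of GRCm38, which is not the mm9 build of the counts and was used for gene structure only, Slc18a3 had 1 exon block of 2413 bases inside the span of Chat on the same strand, and its exon shared 0 bases with the 16 exon blocks of Chat. The RefSeq start sites (GRCm38.p6) of the pair lie 1059 bases apart. The 250 bases before each start are shown because both genes are read from 1 locus; capitals mark TGACG and GACGTC, letters within the element that cyclic AMP response factors bind, searched on both strands; the 2 motifs can overlap, and positions are counted back from the start site to the leftmost base of a match.
Chat, chr14:32465910-32466159, minus strand: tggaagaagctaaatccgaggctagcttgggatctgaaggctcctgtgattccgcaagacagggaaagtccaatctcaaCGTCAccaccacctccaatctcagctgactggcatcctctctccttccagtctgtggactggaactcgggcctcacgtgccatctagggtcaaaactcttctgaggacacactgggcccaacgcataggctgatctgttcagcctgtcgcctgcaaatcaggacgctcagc
Slc18a3, chr14:32464851-32465100, minus strand: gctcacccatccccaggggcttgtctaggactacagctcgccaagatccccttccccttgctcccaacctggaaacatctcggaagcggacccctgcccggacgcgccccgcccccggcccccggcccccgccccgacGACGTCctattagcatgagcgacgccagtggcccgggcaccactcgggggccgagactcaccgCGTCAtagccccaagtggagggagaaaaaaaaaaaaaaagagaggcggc
The Chat window held TGACG on its opposite strand at −171 and no GACGTC. The Slc18a3 window held GACGTC at −112 and TGACG on its opposite strand at −49. Of 32851 promoter windows of this length, 17.8% held TGACG and 3.77% held GACGTC. The windows also differed in base composition, with 54.8% G and C for Chat and 66% for Slc18a3, against a median of 52.4% over all windows. These matches are a description of the letters and say nothing of binding.

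Chat stood at 18 and 24 CPM in male 4-week libraries 1 and 2, 26.9 CPM in both female 4-week libraries, 21.4, 27.8 and 28.1 CPM in male 8-week libraries 1 to 3, and 25.5, 31.9 and 29.7 CPM in female 8-week libraries 1 to 3. Male 4-week library 1 was the lowest, 4 of the 6 8-week libraries exceeded all 4-week ones, and the ages overlapped. The age difference over both sexes was 0.20 (SE 0.11, 95% interval −0.03 to 0.42, edgeR adjusted p = 0.314). Chat was 23.9 ± 4.20 CPM (SD, n = 4) at 4 weeks and 27.4 ± 3.62 CPM (SD, n = 6) at 8 weeks.

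Slc18a3 stood at 46.6 and 37.9 CPM in the male 4-week libraries, 49.1 and 45.2 CPM in the female 4-week libraries, 46.9, 47.1 and 51.2 CPM in the male 8-week libraries, and 48, 47.5 and 52.5 CPM in the female 8-week libraries. All values but that of male 4-week library 2 lay within a narrow band, and 2 of 6 8-week libraries exceeded every 4-week library. The difference was 0.13 (SE 0.07, 95% interval −0.02 to 0.29, edgeR adjusted p = 0.319). The pair kept no fixed ratio: per exon base Slc18a3 had between 1.76 and 3.07 times the counts of Chat, with the highest ratio in male 4-week library 1, where Chat was lowest.

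Slc5a7, the choline transporter that limits the supply for synthesis, stood at 94.6 and 95.8 CPM in the male 4-week libraries, 79.5 and 94.3 CPM in the female 4-week libraries, 78.2, 75.1 and 91.7 CPM in the male 8-week libraries, and 99.2, 90.9 and 99.5 CPM in the female 8-week libraries. In males all 3 of the 8-week libraries lay below both 4-week libraries, while in females 2 of 3 lay above both. The share of all genes with such an order within a sex was not counted. The age difference was −0.22 in males (SE 0.10, edgeR adjusted p = 0.292) and 0.15 in females (SE 0.10, edgeR adjusted p = 0.599). The test of the difference between the sexes gave −0.37 (SE 0.14), which missed the threshold (edgeR adjusted p = 0.97). Over both sexes the value was −0.04 (95% interval −0.22 to 0.14). Without both male 4-week libraries only females span both ages, and the 0.15 (SE 0.10) of that fit is the female difference.

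Ache, the enzyme that ends the signal, stood at 191 and 193 CPM in the male 4-week libraries, 231 and 209 CPM in the female 4-week libraries, 223, 243 and 237 CPM in the male 8-week libraries, and 216, 223 and 226 CPM in the female 8-week libraries. The male 4-week libraries were the lowest of the 10. Over both sexes the difference was 0.15 (SE 0.06, 95% interval 0.02 to 0.28, edgeR adjusted p = 0.178), which passed under 1 of the alternatives run, without female 4-week library 1 (0.21, adjusted p = 0.0486). Within males 3 of 3 libraries at 8 weeks exceeded both at 4 weeks, a separation whose share over all genes was not counted. Ache rose there by 0.29 (SE 0.07, edgeR adjusted p = 0.0418). It was the 1 call among the 8 genes in males, where 3.22% of all genes tested were called and 0.837% were higher. In females the difference was 0.01 (95% interval −0.14 to 0.16), and the difference between the sexes, 0.27 (SE 0.10), did not pass (edgeR adjusted p = 0.97). The call in males ended without any 1 of the 8-week libraries, male or female, and without either male 4-week library, at edgeR adjusted p values between 0.0515 and 0.149, and held without either female 4-week library. It ended at 0.513 without male 8-week libraries 2 and 3, the libraries with lung transcripts, where the value was 0.22 (SE 0.10). Over the 10 libraries Ache had a Pearson correlation of −0.67 with the score of 12 muscle genes and −0.82 with that of 7 red cell genes. After group means were subtracted these were −0.04 and −0.36. With the pan-neuronal score Ache had 0.89, or 0.45 after group means were subtracted. In males 10 of 10 genes of the pan-neuronal list had positive age differences, of which 1 was called. With that score as a covariate Ache in males stood at 0.13 (SE 0.22, edgeR adjusted p = 0.871). The 2 male 4-week libraries were also those with adrenal transcripts; the part of that difference in the result was not tested.

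**Figure D2:**
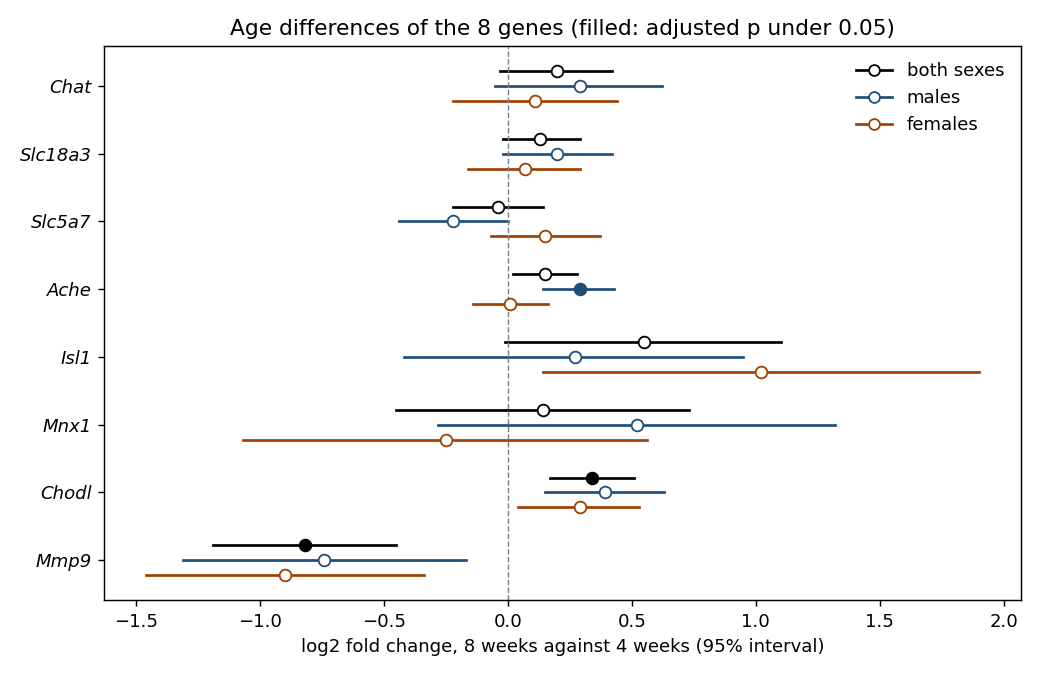
Log2 fold change of each gene at 8 against 4 weeks with its 95% interval, over both sexes (black), in males (blue) and in females (brown); filled points passed the edgeR test at an adjusted p under 0.05. Filled points are Chodl and Mmp9 over both sexes and Ache in males, and the widest intervals are those of Isl1 and Mnx1.

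Isl1 and Mnx1 had few reads in cords of these ages. Isl1 had 5 to 32 counts in a library and Mnx1 had 7 to 25, so counting error alone was wide. The 5 counts of Isl1 in female 4-week library 1 gave 0.591 CPM of total counts with an exact Poisson 95% interval of 0.192 to 1.38 CPM, and the 32 counts in male 8-week library 3 gave 3.03 CPM with 2.07 to 4.28 CPM. These intervals cover counting error only. Isl1 stood at 1.61 and 2.70 CPM in the male 4-week libraries, 0.601 and 1 CPM in the female 4-week libraries, 2.29, 2.65 and 2.99 CPM in the male 8-week libraries, and 1.34, 2.09 and 1.56 CPM in the female 8-week libraries. The female 4-week libraries were the lowest. The age difference was 0.55 over both sexes (SE 0.26, 95% interval −0.01 to 1.10, edgeR adjusted p = 0.245), 0.27 in males (SE 0.31) and 1.02 in females (SE 0.40, edgeR adjusted p = 0.315).

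Mnx1, known also as Hb9, stood at 0.807 and 1.74 CPM in the male 4-week libraries, 1.80 and 1.60 CPM in the female 4-week libraries, 1.66, 1.65 and 2.34 CPM in the male 8-week libraries, and 1.34, 1.78 and 1.14 CPM in the female 8-week libraries. Male 4-week library 1 was lowest and male 8-week library 3 highest. The age difference of 0.14 (SE 0.27, 95% interval −0.45 to 0.73) turned to −0.09 without male 4-week library 1 and to −0.04 without male 8-week libraries 2 and 3. Whether Mnx1 changed cannot be told from these libraries, since that interval spans 0.

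Chodl is shown with its promoter because it was the member called higher. In the 250 bases before its RefSeq start (GRCm38.p6), capitals mark TATATAA, which resembles the core promoter element of that name, and the letters TAAT, the core that many homeodomain factors read, searched on both strands; the 2 motifs share no base here.
Chodl, chr16:78930698-78930947, plus strand: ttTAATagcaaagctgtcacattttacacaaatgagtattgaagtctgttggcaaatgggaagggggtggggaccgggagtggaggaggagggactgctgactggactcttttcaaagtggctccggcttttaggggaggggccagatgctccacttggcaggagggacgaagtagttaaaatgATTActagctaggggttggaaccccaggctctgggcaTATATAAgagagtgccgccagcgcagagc
TATATAA began at −29, and TAAT matches began at −248 and, on the opposite strand, at −66. Of all 32851 windows 3.04% held TATATAA and 54.9% held TAAT, the latter in most windows of this length. The window was 52% G and C, close to the median of 52.4%. No match here says that a factor binds.

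Chodl stood at 39.3 and 30.8 CPM in the male 4-week libraries, 33.3 and 30.9 CPM in the female 4-week libraries, 44, 44.4 and 48.8 CPM in the male 8-week libraries, and 38.9, 37.7 and 40.8 CPM in the female 8-week libraries. Within each sex 3 of 3 8-week libraries exceeded both 4-week libraries. Across the sexes 4 of 6 did, since female 8-week libraries 1 and 2 lay just under male 4-week library 1. So few libraries within a sex can separate by chance, and the share of all genes that did so was not counted. Chodl was 33.6 ± 4.01 CPM (SD, n = 4) at 4 weeks and 42.4 ± 4.13 CPM (SD, n = 6) at 8 weeks, a difference of 0.34 (SE 0.08, 95% interval 0.17 to 0.51, edgeR adjusted p = 0.0161). The differences within sexes were 0.39 in males (SE 0.11, edgeR adjusted p = 0.0845) and 0.29 in females (SE 0.11, edgeR adjusted p = 0.304), and their difference was 0.10 (95% interval −0.24 to 0.45).

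The call of Chodl held without each library in turn, at edgeR adjusted p values between 0.01 and 0.0482. It ended without male 8-week libraries 2 and 3 (0.31, SE 0.09, adjusted p = 0.111) and without both male 4-week libraries (0.29, SE 0.09, adjusted p = 0.141). The latter fit compares females only, since no male 4-week library is left in it. The pan-neuronal list, 10 genes that most neurons express, had 1 gene called higher over both sexes (9 of 10 values positive, median 0.12) and 0 called in females (6 of 10 positive, median 0.01). It summed to 8770 to 9760 CPM at 4 weeks and 9850 to 10400 CPM at 8 weeks, and with its score as a covariate Chodl was no longer called, at 0.21 (SE 0.13, edgeR adjusted p = 0.721). Hoxc10, a positional gene of the lumbar cord, rose by 0.42 (SE 0.11, edgeR adjusted p = 0.0276), from 38.3 to 53.4 CPM of total counts in the 4-week libraries to 51.3 to 73.9 CPM in the 8-week libraries, while Hoxc6, Hoxc8, Hoxc9 and Hoxd10 stood between 0.11 and 0.33 and did not pass. Whether the libraries differ in the cord level they hold was not tested, nor was the part of such a difference in the Chodl result. Of 9 tested cartilage and bone genes 7 were lower at 8 weeks, and of 12 muscle genes 12 were. Over the 10 libraries Chodl had Pearson correlations of −0.66 with the cartilage and bone score, −0.45 with the neutrophil score and −0.57 with the muscle score. With the pan-neuronal score it had 0.69, and with the adrenal medulla score −0.11. After group means were subtracted these were, in that order, 0.89, 0.72, 0.30, 0.71 and 0.76. The part of such transcripts in the Chodl result was not tested.

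Mmp9 stood at 39.2 and 23.2 CPM in the male 4-week libraries, 26 and 43.5 CPM in the female 4-week libraries, 16.9, 14.3 and 24 CPM in the male 8-week libraries, and 18.6, 17.6 and 20 CPM in the female 8-week libraries. Male 4-week library 1 and female 4-week library 2 were far above the rest, and male 8-week library 3, at 24 CPM, lay above male 4-week library 2. Thus 5 of 6 8-week libraries lay below every 4-week library. Mmp9 was 33 ± 9.91 CPM (SD, n = 4) at 4 weeks and 18.6 ± 3.28 CPM (SD, n = 6) at 8 weeks, a difference of −0.82 (SE 0.17, 95% interval −1.19 to −0.45, edgeR adjusted p = 0.0106). It was −0.74 in males (SE 0.26, edgeR adjusted p = 0.167) and −0.90 in females (SE 0.26, edgeR adjusted p = 0.147), and their difference was 0.16 (95% interval −0.65 to 0.97). Without female 4-week library 2 the value was −0.63 and the call ended at an edgeR adjusted p of 0.0565.

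Mmp9 moved with neutrophil transcripts, and also with those of red cells and bone. Of 12 neutrophil and marrow genes 11 were lower at 8 weeks and 1 did not pass, with a median of −1.01, against 0.01 over all genes. In males 7 of 12 were lower with a median of −1.39, in females 0 of 12 were called with a median of −0.60, and the difference between sexes was called for 0 of 12 (median −0.68), beside −0.74, −0.90 and 0.16 for Mmp9. The antimicrobial peptide gene Camp fell by 1.17 (SE 0.24, edgeR adjusted p = 0.00843) and the granule gene Ngp by 0.90 (SE 0.23, edgeR adjusted p = 0.031). None of the 12 was at 0 in any library: S100a8 lay between 27.1 and 139 CPM of total counts in the 10 libraries. Across the 10 libraries Mmp9 and the neutrophil score, the mean centred log2 level of the 12 genes, had a Pearson correlation of 0.92 and a Spearman correlation of 0.92, and 0.96 after group means were subtracted, as a description over libraries that share depth and tissue. With that score as a covariate the Mmp9 difference was −0.13 (SE 0.21, edgeR adjusted p = 0.941). The covariate also raised the median SE of all genes from 0.10 to 0.16, and under it Chodl stood at 0.47 (SE 0.13) and was no longer called either (edgeR adjusted p = 0.16). With the score of 7 red cell genes Mmp9 had a Pearson correlation of 0.90, or 0.92 after group means were subtracted. For cartilage and bone genes these were 0.81 and 0.52, for muscle genes 0.72 and 0.10, and for sensory ganglion genes 0.05 and 0.88. The pan-neuronal score gave −0.47 and 0.58. Which cells the Mmp9 transcripts came from was not tested.

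Genes of osteoclasts, the bone-resorbing cells that also make Mmp9, had transcripts too. Of 8 osteoclast genes 5 could be tested, 4 were lower at 8 weeks and 1 did not pass. Acp5, the acid phosphatase of these cells, fell by 3.62 (SE 0.33), and the protease gene Ctsk fell by 1.59 (SE 0.16). The list summed to 68.7 to 126 CPM at 4 weeks and 23.5 to 35.4 CPM at 8 weeks, and the score of 6 of them had a Pearson correlation of 0.83 with Mmp9, or 0.55 after group means were subtracted (10 libraries). Per exon base, Mmp9 had 0.388 to 1.69 times the counts of Chodl, the other marker of fast motor neurons. This ratio lay between 0.907 and 1.69 at 4 weeks and 0.388 and 0.592 at 8 weeks. The 2 genes were called in opposite directions for age, so the separation restates those calls and is no further result.

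**Figure D3:**
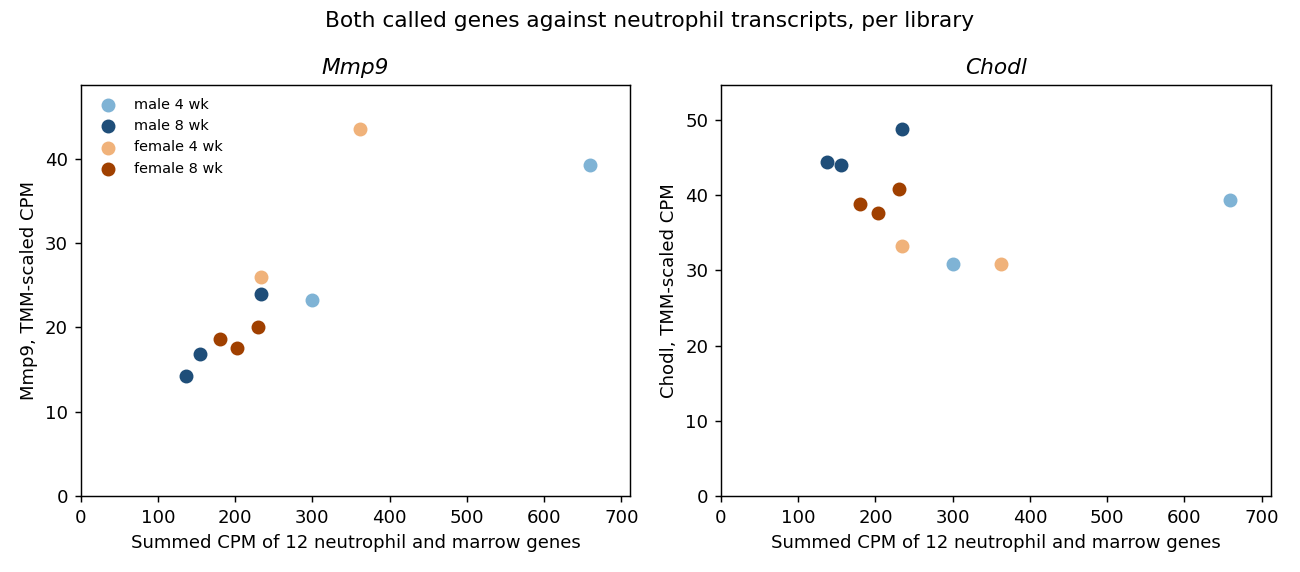
TMM-scaled CPM of Mmp9 (left) and Chodl (right) in each of the 10 libraries against the summed CPM of 12 neutrophil and marrow genes, with linear axes from 0 and colours for the 4 groups. Mmp9 is at 14.3 CPM at the lowest neutrophil sum (137 CPM) and at 39.2 CPM at the highest (659 CPM), with its highest value, 43.5 CPM, at a sum of 362 CPM; Chodl has a Pearson correlation of −0.45 with the neutrophil score.

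Levels of different genes were compared per kilobase of exon, with exon lengths from GENCODE M21. Ache was highest at 100 ± 7.89 CPM per kb (SD, n = 10), and its lowest library, 87.5, lay far above every other member. Next were Slc18a3 (19.6 ± 1.63) and Slc5a7 (17.4 ± 1.73), with ranges of 15.7 to 21.8 and 14.5 to 19.2 that overlapped. Then came Chodl (10.2 ± 1.57), Chat (9.10 ± 1.42) and Mmp9 (7.66 ± 3.05), which overlapped one another, with Mmp9 spanning 4.52 to 13.7. Isl1 (0.749 ± 0.313) and Mnx1 (0.706 ± 0.184) were lowest and could not be ordered. These lengths are approximate, since the annotation used for counting is not known here.

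Between the sexes, over both ages, none of the 8 genes was called by edgeR, where 0.0901% of all genes tested were called, and DESeq2 called 0 as well. At an unadjusted p under 0.05 there were 3, against 7.36% of all genes: Isl1, Chodl and Chat. Isl1 was 0.91 higher in males (SE 0.25, edgeR adjusted p = 0.377), and 4 of 5 male libraries lay above every female library, the exception being male 4-week library 1 at 1.61 CPM. Chodl was 0.19 higher in males (SE 0.07, adjusted p = 0.636) and Chat was 0.24 lower (SE 0.10, adjusted p = 0.655). Of 9 sensory ganglion genes 6 could be tested for sex, with 6 of 6 values higher in males and a median of 1.69. Of these 6 edgeR called 0 and DESeq2 called 3, where DESeq2 called 35 over all genes. At an unadjusted p under 0.05 by edgeR there were 4, against 7.36% of all genes. The 9 summed to 11.6 to 40.9 CPM in male and 10.8 to 14.3 CPM in female libraries, ranges that overlapped. Isl1 had a Pearson correlation of 0.65 with the score of those 6 genes over the 10 libraries, and 0.06 after group means were subtracted. Of 7 adrenal medulla genes 6 could be tested for sex, with 6 of 6 values higher in males, a median of 0.24 and 0 called by edgeR. With the score of the 7 Isl1 had a Pearson correlation of 0.27, and −0.51 after group means were subtracted. The part of ganglion or adrenal transcripts in the Isl1 difference was not tested. For the difference of the age effects between sexes, edgeR and DESeq2 each called 0 of the 8 (0.0129% of all genes by edgeR), and 2, Slc5a7 and Ache, had an unadjusted p under 0.05, against 4.82% of all genes. In females alone edgeR called 0 of the 8 (1.45% of all genes), and 3 had an unadjusted p under 0.05, against 12.1% of all genes. There DESeq2 called 1, Mmp9, at −0.89 (adjusted p = 0.0223). DESeq2 made 296 calls among the 15540 genes, of which 603 were given no adjusted p.

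Pairs of the 8 genes had Pearson correlations between −0.59 and 0.68 across the 10 libraries. The closest pair before groups were removed was Slc18a3 and Ache (Pearson r = 0.68, Spearman 0.70), followed by Chat and Ache (0.65 and 0.71). Chat had r = 0.34 with Slc18a3 and 0.02 with Slc5a7. After group means were subtracted, Slc18a3 and Chodl had r = 0.98, the highest of all pairs, and Chat and Isl1 had 0.77, while Chat and Slc18a3 had −0.31. In male 4-week library 1 both Slc18a3 and Chodl were above library 2 of that group, while Chat, Ache, Isl1 and Mnx1 were below it. These are descriptions over 10 libraries, in which genes share depth and scaling.

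A cholinergic score, the mean centred log2 level of Chat, Slc18a3 and Slc5a7, ran from −0.15 in male libraries 1 of both ages to 0.17 in female 8-week library 3. Each of these 3 genes correlated weakly with the mean of the other 2 (Pearson r between −0.01 and 0.24). Of 13952 genes ranked over the 10 libraries, those most like it were Mark1, a kinase of microtubule-binding proteins (r = 0.95), Sorcs3, a sorting receptor of neurons (0.95), Inpp5j, an inositol phosphatase (0.92), Sez6l (0.91), Ptpn3, a tyrosine phosphatase (0.91), and a gene without a symbol, Entrez Gene 100504422 (0.90). None of these 6 was called for age by edgeR, with changes between 0.07 and 0.19. Among the 5 other members Ache had the highest correlation with the score, at 0.47, and 21.1% of the ranked genes had a higher one. After group means were subtracted Ache had 0.37, below Isl1 (0.52) and Mmp9 (0.40).

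Of 21 subunit genes of acetylcholine receptors 14 could be tested and 0 were called by edgeR for age over both sexes, with a median of 0.17. At an unadjusted p under 0.05 there were 2, and DESeq2 called 1, Chrna7. Those with the most reads were the neuronal nicotinic subunits Chrnb2, at 56.5 ± 4.99 CPM (SD, n = 4) and 61.9 ± 5.2 CPM (SD, n = 6) at 4 and 8 weeks, and Chrna4, at 50.1 ± 8.38 and 55.5 ± 5.12 CPM. Their differences were 0.13 (SE 0.07) and 0.15 (SE 0.09). The 2 with an unadjusted p under 0.05, named after their values were seen, were Chrna7, of the alpha-bungarotoxin binding receptor, at 0.53 (SE 0.16, edgeR adjusted p = 0.0717) and Chrnb4 at 1.04 (SE 0.33, edgeR adjusted p = 0.0776). Low counts kept 7 subunits out of the test: Chrna1, Chrna9, Chrna10, Chrnb3, Chrnd, Chrne and Chrng, among them 4 of the muscle endplate, and Chrng had 0 counts in all libraries.

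Of 11 other genes of acetylcholine handling, 1 was lower, 0 were higher and 10 did not pass. Slc44a1, a choline transporter of the cell membrane that many cell types use, was 308 ± 23.1 CPM at 4 weeks (SD, n = 4) and 259 ± 21.2 CPM at 8 weeks (SD, n = 6), and fell by 0.25 (SE 0.06, edgeR adjusted p = 0.0258). Slc44a1 was no longer called without male 4-week library 2, female 4-week library 2, male 8-week library 2 or 3, or female 8-week library 1 or 3 (edgeR adjusted p between 0.057 and 0.0734), and was not called without male 8-week libraries 2 and 3 or without both male 4-week libraries (0.186 in each). The fit without both male 4-week libraries compares females only. Lynx1, a membrane-anchored modulator of nicotinic receptors and the gene of the list with the most reads, stood at 442 ± 23.3 and 444 ± 17.4 CPM, a difference of 0.01 (SE 0.05).

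Of 13 other transcription factors of motor neurons and related cells 10 could be tested, and 1 was lower. Pou3f1, a POU-domain factor also used by glia that make myelin, was 12.8 ± 0.892 CPM at 4 weeks (SD, n = 4) and 8.73 ± 1.47 CPM at 8 weeks (SD, n = 6). It fell by 0.55 (SE 0.12, edgeR adjusted p = 0.0162), and its call ended without male 4-week library 1 (adjusted p = 0.0549), without male 8-week libraries 2 and 3 (0.0959) and without both male 4-week libraries (0.36). The last of these fits compares females only. Lmo4, a LIM-only partner, stood at 48.5 ± 5.75 and 47.8 ± 4.30 CPM, and Bcl6 at 25.2 ± 1.43 and 30 ± 3.09 CPM, neither of which passed. Isl2, Lhx3 and Lhx4, the LIM factors that act with Isl1 in the embryo, had means between 1.47 and 2.15 CPM at either age and did not pass; they were named after their values were seen.

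Among 22 genes of mature motor neurons and their subtypes, 1 was higher, 0 were lower and 21 did not pass, with a median of 0.08. Sv2b, a synaptic vesicle protein of many neurons, was 143 ± 3.17 CPM at 4 weeks (SD, n = 4) and 161 ± 7.60 CPM at 8 weeks (SD, n = 6), and rose by 0.17 (SE 0.05, edgeR adjusted p = 0.0438). Among fits that left out 1 library, that call held without male 4-week library 2 or male 8-week library 1 and ended without any of the other 8 (edgeR adjusted p between 0.066 and 0.103). It also ended with no filter on low counts (0.068), without male 8-week libraries 2 and 3 (0.187) and without both male 4-week libraries (0.145). Here too the fit without both male 4-week libraries compares females only. Nefh, the heavy neurofilament subunit, stood at 1160 ± 57.7 and 1210 ± 60.9 CPM (0.06, SE 0.05), and Sv2a, another vesicle protein, at 512 ± 30.2 and 531 ± 20.7 CPM (0.05, SE 0.05). In the pan-neuronal list 1 of 10 genes, Snap25, was higher (0.18, SE 0.04), and the list's median was 0.12.

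**Figure D4:**
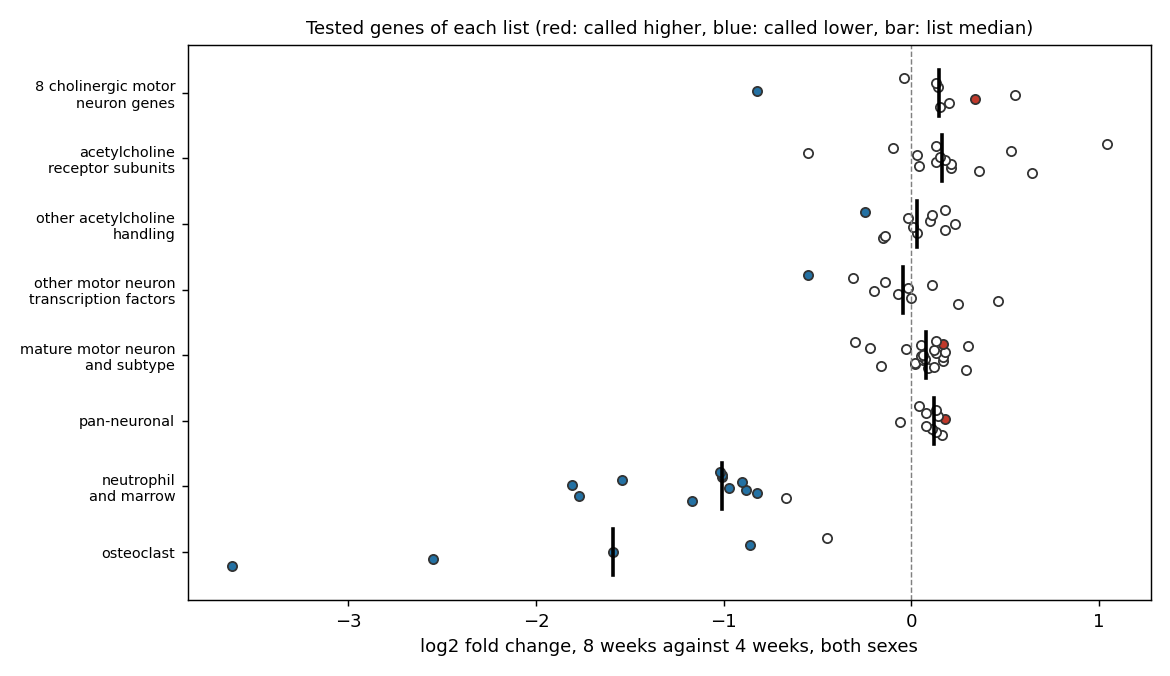
Log2 fold change at 8 against 4 weeks over both sexes for every tested gene of 8 lists (1 point per gene); red points were called higher and blue points lower by edgeR, and the black bar is the list's median. The cholinergic and motor neuron lists lie near 0 with medians between −0.04 and 0.17, while Mmp9 is the only point of the top list left of −0.5 and the neutrophil and osteoclast lists lie at medians of −1.01 and −1.59.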

How the data were processed

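RNA was measured in 10 spinal cord libraries. Reads were aligned with TopHat2 2.1.0 to mm9 and counted per gene with featureCounts, per the submitters' processing notes; counting options, strandedness and gene annotation were not given in the sources used here, and overlapping genes and near-identical copies could share reads. The deposited files hold raw counts for 26301 Entrez Gene identifiers, of which 24191 matched a symbol; identifiers with no symbol took 0.956% of the counts or less. Library totals of 8453559 to 11594610 counts set the precision of low genes.

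Counts were filtered with filterByExpr (minimum count 10, minimum total 15), scaled by TMM and tested with the quasi-likelihood test of edgeR 4.0.16 in R 4.3.3 on 15540 genes, with Benjamini-Hochberg adjustment and a threshold of 0.05. An additive model of age and sex (7 residual degrees of freedom) gave the age difference over both sexes and the sex difference over both ages; age within each sex and the difference between sexes came from a model of the 4 groups (6). The 95% intervals use the test's own degrees of freedom. The SE is the fold change divided by the root of F. Scores are means of centred log2 CPM with a prior count of 2. The script was checked on simulated counts.

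Alternatives were DESeq2 1.42.0, other size factors, other filters, a replicate block, marker scores as covariates and libraries left out. Named genes were all 8 members, the called genes and the 2 genes with the most reads of each pathway list, and 6 genes most like a cholinergic score; marker genes are given as examples. The members and lists were chosen with earlier results of these data known. RefSeq sequences (GRCm38.p6) were matched by symbol: 7 of 8 members had a promoter window, and Mmp9 is named only.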

Additional observations from a re-analysis of the deposited data

Results flagged for a closer look

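Slc5a7 in female 4-week library 1, at 79.5 TMM-scaled CPM, lay apart from the other 3 of the 4-week libraries, which stood between 94.3 and 95.8 CPM (Dixon ratio 0.908, n = 4). It was the 1 such value among 16 groups of libraries examined (8 genes at 2 ages), and chance gives about 1 in 20. Without that library the age difference of Slc5a7 over both sexes was −0.12 (SE 0.08, edgeR adjusted p = 0.457).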

How the results depend on the processing

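Of the 8 genes, Chodl and Mmp9 kept their age calls with other size factors, without the low-count filter, with a minimum of 1 CPM in 4 libraries, with DESeq2 and with the replicate block. With the muscle, neutrophil or pan-neuronal score as covariate 0 of the 8 were called for age over both sexes, and 1 was called without male 8-week libraries 2 and 3 or without both male 4-week libraries. Over all genes the count of 1028 was then 105, 108, 56, 474 and 393. Without both male 4-week libraries the age difference over both sexes is that of females alone. The sex difference is then that of the 8-week libraries alone. The marker score covariates correlate with age, and with them the median SE rose from 0.10 to 0.21, 0.16 and 0.17. In males 0 of the 8 were called with the replicate block, with any of the 3 covariates, or without male 8-week libraries 2 and 3, and the count of all genes (501) was 109, 31, 1 and 15 with the 3 covariates in that order and without those libraries. In females 1 of the 8 was called without the low-count filter, with DESeq2 and without both male 4-week libraries, and the count of all genes (226) was 340 without the filter, 34, 56 and 63 with the covariates, 118 without male 8-week libraries 2 and 3 and 393 without both male 4-week libraries. For the difference between sexes the count of 2 was 1 with the neutrophil score, 0 with the pan-neuronal score and 0 without male 8-week libraries 2 and 3. For sex the count of 14 was 60 without the filter, 35 with DESeq2, 38 with the replicate block, 24 with the muscle score and 9 without both male 4-week libraries. The cause of these shifts was not tested.

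Whether replicate numbers pair the libraries could not be told. After group means were subtracted, correlations of same-numbered libraries were −0.21 to 0.24 (13 pairs) and of others −0.25 to 0.25 (24 pairs). In a group of 2 libraries the deviations mirror each other, so such values recur with the opposite sign and the ranges cannot differ freely. Between the sexes at 4 weeks same numbers had 0.21 and others −0.21. By this measure 2 of 10 libraries correlated best with their own number. With the replicate block 808 genes were called for age over both sexes, 2 of them members, and Ache in males stood at 0.28 (adjusted p = 0.0735), Slc44a1 at −0.21 (0.0678), Pou3f1 at −0.52 (0.0542) and Sv2b at 0.15 (0.133), by edgeR.

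The sign of some differences that did not pass in the main analysis turned. For age over both sexes, with the muscle score Chat was −0.12 and Mnx1 −0.47; with the neutrophil score Slc5a7 was 0.21 and Mnx1 −0.30; with the pan-neuronal score Slc5a7 was 0.10, Slc18a3 −0.01, Ache −0.04 and Mnx1 −0.39. Without male 8-week libraries 2 and 3 Mnx1 was −0.04. Without both male 4-week libraries Slc5a7 was 0.15 and Mnx1 −0.25, which are the values of females. In males, with the muscle score Chat was −0.03, Isl1 −0.22 and Mnx1 −0.09, with the neutrophil score Slc5a7 was 0.01 and Mmp9 0.46, and with the pan-neuronal score Chat was −0.19, Slc18a3 −0.15 and Isl1 −0.01. In females, with the muscle score Chat was −0.19, Slc5a7 −0.07 and Ache −0.01, with the neutrophil score Ache was −0.01, and with the pan-neuronal score Chat was 0.00, Slc18a3 −0.02 and Ache −0.02. For the difference between sexes, with the pan-neuronal score Chat was −0.19, Slc18a3 −0.13, Chodl −0.18 and Mmp9 −0.71, and Chat was −0.09 without male 8-week libraries 2 and 3. For sex, with the pan-neuronal score Ache was 0.06 and Mmp9 0.05, Ache was 0.08 without both male 4-week libraries, and Mnx1 was −0.10 without male 8-week libraries 2 and 3.

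Leaving out each library in turn gave 719 to 1473 genes for age over both sexes (1 to 3 members), 188 to 1199 in males (0 to 1), 62 to 394 in females (0 to 1), 1 to 2 for the difference between sexes (0) and 10 to 28 for sex (0). Signs turned within these ranges: Slc5a7 −0.12 to 0.01 and Mnx1 −0.09 to 0.26 for age over both sexes, Isl1 −0.02 to 0.72 in males, Ache −0.05 to 0.09 in females, Slc18a3 −0.01 to 0.29, Chodl −0.06 to 0.29 and Mmp9 −0.27 to 0.59 for the difference between sexes, and Ache −0.06 to 0.02, Mnx1 −0.04 to 0.29 and Mmp9 −0.22 to 0.07 for sex. Where a group had 1 library left, it was assumed to vary like the others. Depth limits Isl1 and Mnx1 most, at 5 to 32 and 7 to 25 counts a library.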
